A study of Drosophila melanogaster with 10 samples.

Results

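The members of the Notch pathway described here, 9 of the 17757 genes counted in the series, were followed through pupal development of the T4/T5 neurons of Drosophila melanogaster. They were chosen by name: the receptor N, its ligands Dl and Ser, the glycosyltransferase fng, the metalloprotease kuz (kuzbanian), the gamma-secretase subunits nct and Psn, the transcription factor Su(H) and its antagonist H. Of these, kuz was the gene that separated the T4/T5 subtypes. It was high in the c and d subtypes at 36 and 48 h after puparium formation (APF), whereas at 60 h it was high in the b subtypes and low in the a subtypes of both T4 and T5. The receptor and both ligands were at or near the limit of detection in these neurons, and Psn, nct, Su(H) and N fell between 24 and 72 h APF. N was also lower at 72 h in sorted cells rich in glial genes. Whether RNA from those cells bears on the fall of N was not tested.

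In the Notch pathway a membrane receptor is cut by proteases when a ligand on a neighbouring cell pulls on it. Kuz, the fly counterpart of ADAM10, makes the outer cut, and gamma-secretase, with presenilin (Psn) as its catalytic subunit, then frees the intracellular domain. This domain enters the nucleus, where Su(H) and Mastermind use it to switch on target genes such as those of the E(spl) complex. Hairless (H) turns Su(H) into a repressor where Notch is silent. In the optic lobe, Notch decides between sister fates as the precursors of T4 and T5 divide, and the a and d subtypes descend from the ganglion mother cells with Notch activity. Kuz also cuts other surface proteins, among them receptors that steer growing axons. T4 and T5 are the local motion detectors of the fly. T4 responds to brightness increments and T5 to decrements, and the a to d subtypes of each respond to motion from front to back, from back to front, upwards and downwards and send axons to separate layers of the lobula plate.

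The data were single-cell transcriptomes (10x Genomics, version 3 chemistry) of GFP-positive cells sorted from pupal brains at 24, 36, 48, 60 and 72 h APF, with 2 libraries per stage and 10 in all. Every library came from the same genotype, the split driver SS00324-Gal4 recombined with UAS-mCD8::GFP, so that the stages differed in age and carried no further allele or treatment. The study's methods call the libraries of a stage biological replicates, and p-values measure the spread between them. In the subtype tests the sums of the same library enter as separate values, except where the library is named as a block. The sort was aimed at the cells this driver marks, and other cells of the brain were present only as far as they came through it.

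The libraries held between 12798989 and 62530395 unique molecular identifiers (UMIs) in 72871 barcodes, of which 62584 were kept after barcodes rich in mitochondrial or heat-shock transcripts were left out. Clusters were named from marker genes as T4a-like to T5d-like, and these are called T4a to T5d from here on. They held 48518 cells, between 1116 and 8847 per library and between 104 and 1619 per subtype and library. A CPM value is the UMI count of a gene in the summed cells of a library, subtype or cluster, scaled to the same total in each. Clusters low in most of the defining genes SoxN, Sox102F and Lim1 were left out before naming. Clusters high in the sum of repo, Gs2, Eaat1 and alrm were left out too. The levels of these genes in named clusters thus follow in part from that choice. SoxN, Sox102F and Lim1 reached at least 1070, 384 and 530 CPM in every named cluster. Of 5 glial genes repo and alrm stayed at or below 4.1 CPM and Gs2 and Eaat1 at or below 13.4 CPM. The glial gene nrv2 reached 565 CPM in a named cluster and was at 44.7 to 451 CPM in T4/T5 cells, highest at 60 h, against 216 to 3468 CPM in clusters rich in glial genes. Of 4 neuroblast genes dpn, ase and wor stayed at or below 0.95 CPM and mira reached 31.6 CPM. Their part in the results was not tested. The first 36 h library had the fewest cells and the first 72 h library the lowest median depth, 3012 UMIs per cell, and results that rest on them are given without them below. Libraries shared at most 53 barcodes. Fewer cells with a transcript and less transcript per cell cannot be told apart in such sums.

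On the Release 6 assembly, as annotated in BDGP6.54, N lies on chromosome X from 3134870 to 3172221, plus strand. The ligand genes are on chromosome arm 3R, Dl from 19302731 to 19326217 and Ser from 27172090 to 27194267, both on the minus strand. On 3L lie fng, from 20925891 to 20949512 on the minus strand, and Psn, from 20432468 to 20435156 on the plus strand. On 2L lie kuz, from 13550139 to 13639411, and Su(H), from 15039488 to 15043334, both on the plus strand. On 3R lie nct, from 24851601 to 24854869, and H, from 20621938 to 20628915, both on the plus strand. The kuz gene spans 89273 bp with 12 blocks of exons, and 3 small noncoding RNAs on its strand share 1, 10 and 27 bp of exon with it, so their reads could not be told apart from those of kuz there. This annotation is a later release than the one the UMIs were counted against, and it was used for positions only.

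How did the pathway change as T4/T5 neurons matured? The cells of each library were summed and stages compared with the quasi-likelihood test of edgeR, Benjamini-Hochberg adjusted over the 8162 genes tested, with an adjusted p under 0.05 as a call. Of the 9 genes, 7 had enough UMIs to be tested, and Ser and fng did not. Between 24 and 72 h APF, 4 of the 7 fell and none rose (57.1%), against 58.0% of all tested genes called and 29.3% called lower, so the share of members called was that of all genes. The median change of the 7 was -1.15 on the log2 scale, against 0.02 over all tested genes. Between 48 and 60 h, 2 of the 7 fell, N and Psn, against 19.0% of all tested genes called. No member was called between 24 and 36 h (4.19% of all genes called), between 36 and 48 h (16.5%) or between 60 and 72 h (9.41%). In these steps 1, 1 and 2 members had an unadjusted p under 0.05, and DESeq2 called none. The scale factors (TMM) matter here: with library totals alone, the median change of all genes shifted by -0.56 on the log2 scale for 72 h against 24 h, and by -0.20, -0.15 and -0.14 for the steps from 36, 48 and 60 h. Fold changes below are relative to this shift, whereas CPM values are per library total.

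**Figure D1:**
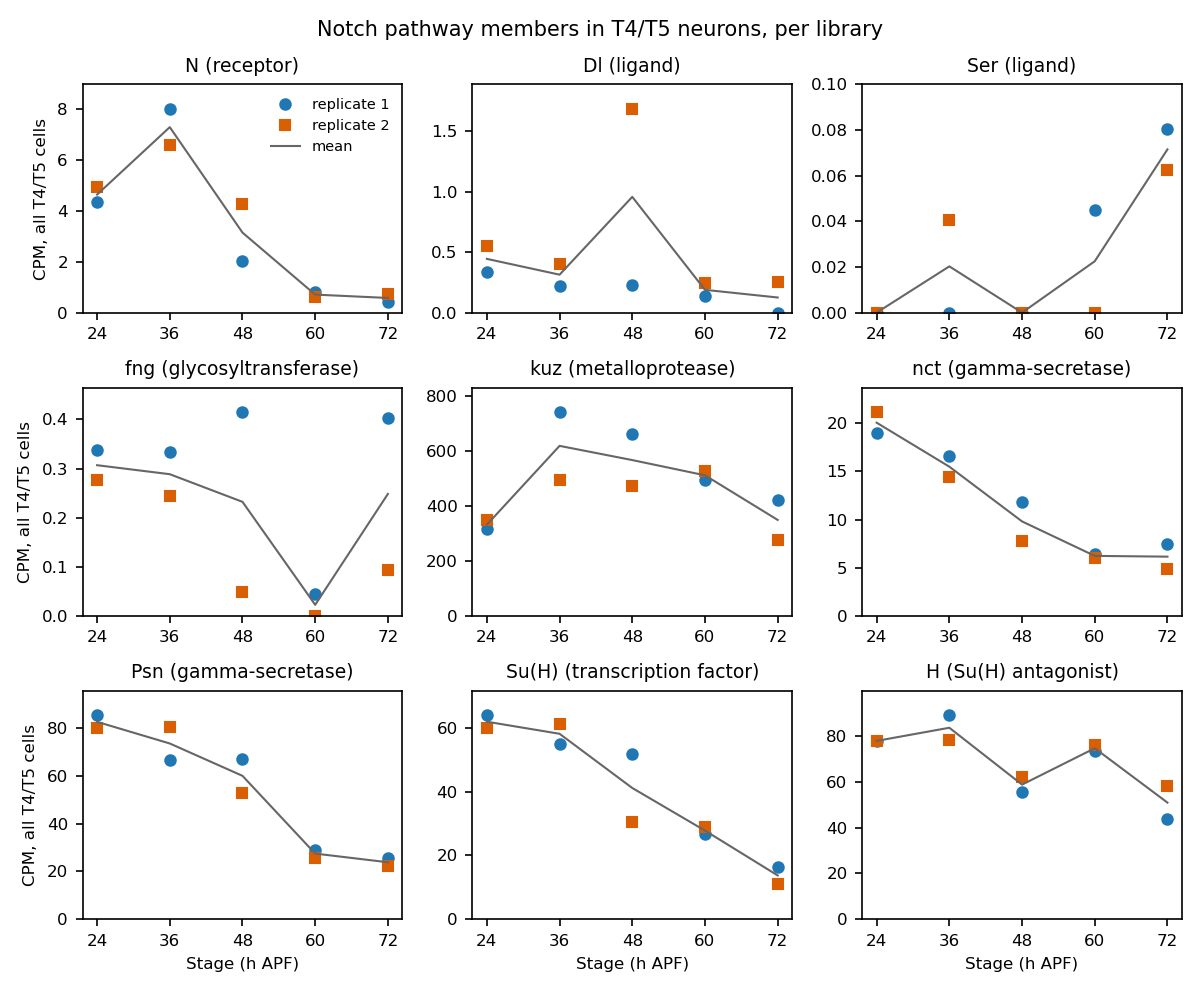
Level of each of the 9 genes (CPM of all named T4/T5 cells, y axes differ between genes) against stage in h APF. Circles and squares are the first and second library of a stage and the line is their mean. N, nct, Psn and Su(H) end lower than they start, kuz is highest at 36 h (740 and 495 CPM), and Ser has 5 UMIs in all 10 libraries together.

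The receptor N was rare. It was at 4.33 and 4.95 CPM in the 2 libraries at 24 h, then 8.003 and 6.57 (36 h), 2.03 and 4.26 (48 h), 0.811 and 0.605 (60 h), and 0.403 and 0.751 (72 h). Both libraries at 60 and 72 h lay below every earlier library. The values rest on few molecules, 799 UMIs in all and 5 to 24 UMIs per library at 72 h. N fell between 48 and 60 h (log2 fold change -1.998 ± 0.43 SE, adjusted p = 0.0133) and between 24 and 72 h (-2.37 ± 0.43, adjusted p = 0.00175). The later step was no longer called without the second 48 h library (adjusted p = 0.0731), without the first or second 60 h library (0.0795 and 0.107), with cells thinned to 2000 UMIs (0.163) or over all barcodes that passed (0.062). Without the second 48 h library N also fell from 36 to 48 h (-1.67, adjusted p = 0.0337), and the fall from 24 to 72 h was called under all alternatives run.

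Clusters with a high sum of glial genes held 615 cells that had come through the sort, and they give a level to compare with. In these, N was at 987 and 688 CPM at 24 h, 288 and 314 (36 h), 372 and 321 (48 h), 361 and 56.7 (60 h), and 41.8 and 66.4 (72 h). The level in T4/T5 cells was 0.225% to 2.78% of it. For repo, a transcription factor of glia that neurons lack, the same ratio was 0.0935% to 2.31%. In 8 of 10 libraries the ratio of N was 2.02 to 10 times that of repo. As repo is among the genes that set these clusters apart, its low ratio follows in part from that choice, which N had no part in. These ratios rest on few molecules, as repo gave 2 to 17 UMIs per library in T4/T5 cells. The highest, in the second 60 h library, rests on 1 N UMI in 22 cells of the glial-gene clusters. In the first 24 h library the 2 ratios were alike (0.439% against 0.403%). In the first 72 h library that of N was the lower (0.963% against 2.31%), from 3 N UMIs in 36 cells of the glial-gene clusters. N was lower at 72 h than at 24 h in both groups of cells. Its ratio was 0.439% and 0.719% at 24 h and 0.963% and 1.13% at 72 h. How much of the N signal in T4/T5 cells, or of its fall, is free RNA from such cells was not tested.

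The ligands were rarer still. Delta (Dl) gave 130 UMIs in all and 3 or fewer in 3 of the 10 libraries, and its highest level was 1.68 CPM, in the second 48 h library. That library held 68 of the 130 UMIs, found in all 8 subtypes, whereas the first 48 h library held 5. At this stage Dl was among the 10 genes most enriched in a T4d cluster of 49 cells. The step of Dl from 48 to 60 h was -2.25 ± 1.05 (SE, unadjusted p = 0.0625), which was a call only when no gene was filtered out (-2.29, adjusted p = 0.0311), and no other change of Dl was called. Serrate (Ser) gave 5 UMIs in 48518 cells, with 3 or fewer in every library. Fringe (fng), which adds a sugar to the receptor and so changes which ligand it hears, gave 47 UMIs, with 3 or fewer in 5 libraries and at most 0.415 CPM. In the glial-gene clusters fng was at 13.9 to 272 CPM, the lowest from 1 UMI. There Dl reached 33.1 to 133 CPM from 24 to 48 h. Ser and fng were thus at or near 0 in T4/T5 cells at this depth.

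**Figure D2:**
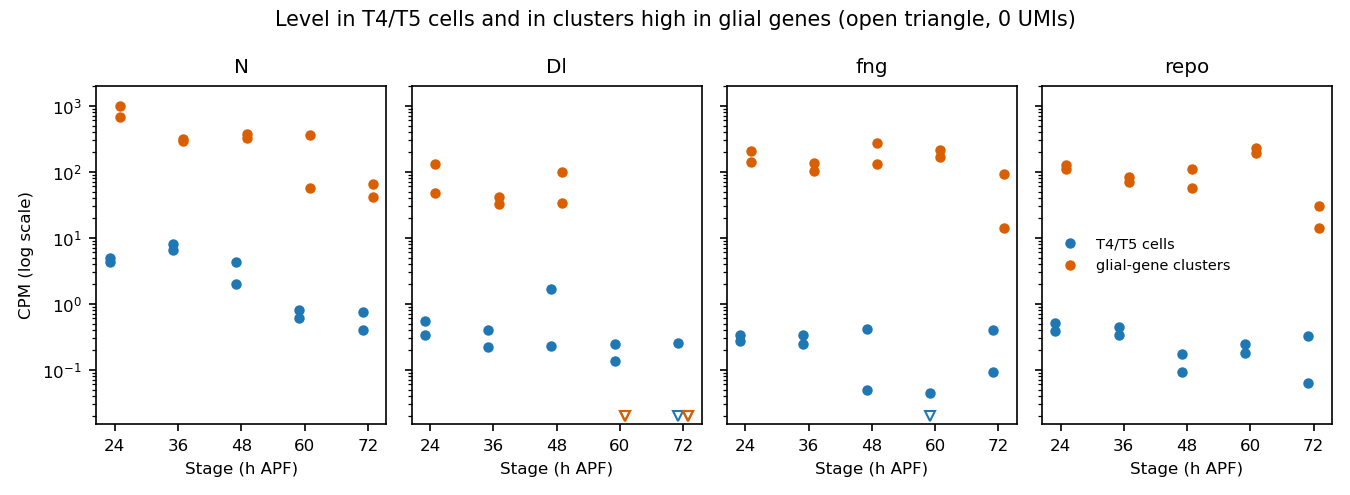
Level of N, Dl, fng and the glial gene repo (CPM, log scale) against stage in h APF, for named T4/T5 cells (blue) and for clusters with a high sum of glial genes (orange). Each point is a library and open triangles mark 0 UMIs. N in T4/T5 cells stays between 0.403 and 8.003 CPM, whereas in the glial-gene clusters it lies between 41.8 and 987 CPM.

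The protease kuz was abundant in every library. It was at 314 and 348 CPM at 24 h, 740 and 495 (36 h), 660 and 472 (48 h), 495 and 526 (60 h), and 422 and 275 (72 h). All libraries from 36 to 60 h lay above those at 24 h, and the second 72 h library was the lowest of the series. The change from 24 to 36 h was 0.97 ± 0.33 (SE, adjusted p = 0.197), which was not a call, although it became one when no gene was filtered out (0.95, adjusted p = 0.00722). Between 24 and 72 h the fitted change was 0.67 ± 0.33 (adjusted p = 0.109). With library totals alone it was 0.07, without the second 72 h library it was 1.003 and called (adjusted p = 0.0225), and with no filter it was 0.61 and called (adjusted p = 0.0477). The summed level of kuz hides the subtypes, which moved in opposite directions, as described below.

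Both gamma-secretase subunits among the members, nct and Psn, fell. The subunits aph-1 and pen-2 were not members and were counted with the genes of cleavage below. Mean levels at 24 and 72 h were 69.5 and 27.2 CPM for aph-1, and 68.9 and 44.8 CPM for pen-2. These levels are per library total, which shifted the median change of all genes by -0.56 on the log2 scale. Neither gene had a call with at least a 2-fold change. The 72 h libraries of pen-2 lay far apart, at 25.5 and 64.1 CPM. Nicastrin (nct), which holds the substrate for the enzyme, was at 19.0 and 21.1 CPM at 24 h, 16.6 and 14.4 (36 h), 11.8 and 7.81 (48 h), 6.40 and 6.05 (60 h), and 7.41 and 4.88 (72 h). Every library at 60 and 72 h lay below every earlier one. The fall from 24 to 72 h was -1.15 ± 0.29 (SE, adjusted p = 0.00942), and without the second 24 h library it just missed the call (-1.03, adjusted p = 0.0534). On the opposite strand HDAC11 shares 374 bp of exon with nct, and mRpL15 shares 47 bp with Psn. Whether the counting used strand is not given in the sources used here.

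Presenilin (Psn) went from 85.3 and 79.9 CPM at 24 h, through 66.8 and 80.2 (36 h) and 67.1 and 52.8 (48 h), to 29.1 and 25.8 (60 h) and 25.5 and 22.0 (72 h). The libraries up to 48 h and those from 60 h on did not overlap. The step from 48 to 60 h was -0.98 ± 0.19 (SE, adjusted p = 0.00964) and the change from 24 to 72 h was -1.22 ± 0.19 (adjusted p = 0.000875). The step was lost without the first 48 h library (adjusted p = 0.0543) or without the first or second 60 h library (0.0696 and 0.0938). The change from 24 to 72 h was called under every alternative run.

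In the nucleus, Su(H) fell, whereas edgeR called no change of its antagonist H. Su(H), which binds the DNA of Notch targets, was at 63.9 and 59.9 CPM at 24 h, 54.9 and 61.3 (36 h), 51.9 and 30.4 (48 h), 26.5 and 29.0 (60 h), and 16.4 and 10.96 (72 h). Both 72 h libraries were below all others. Su(H) fell from 24 to 72 h (-1.60 ± 0.31 SE, adjusted p = 0.00254). The step from 60 to 72 h was -0.86 ± 0.31 (unadjusted p = 0.0225) and was a call only without the first 72 h library (-1.28, adjusted p = 0.0467) or with no filter (-0.88, adjusted p = 0.00803).

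H was at 77.9 CPM in both 24 h libraries, 89.0 and 78.2 (36 h), 55.5 and 62.0 (48 h), 73.3 and 76.0 (60 h), and 43.6 and 58.3 (72 h). The 48 and 72 h libraries lay below all others, and the first 72 h library was the lowest. None of these steps was called with edgeR, and for the step from 48 to 60 h (0.50 ± 0.16 SE, adjusted p = 0.0678) DESeq2 gave a call (0.54, adjusted p = 0.0261). From 24 to 72 h the fitted change was -0.05 (adjusted p = 0.797), and with library totals alone it was -0.61 and called (adjusted p = 0.0215).

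Did the subtypes differ? Here the UMIs of each subtype and library gave 80 sums, fitted together with edgeR over 7188 genes, of which N, kuz, nct, Psn, Su(H) and H were tested. Members and the listed pathway genes were left out of the genes that the clusters were made from, so subtype differences of these genes do not follow from the clustering. Averaged over the 5 stages, kuz was lower in a,b than in c,d (13.2% of all genes called), lower in a,d than in b,c (3.24%) and lower in a than in b (2.74%), and it was the only member called in these contrasts. N alone was called in T4 against T5 (22.1%). No member was called in c against d (1.73%), where none had an unadjusted p under 0.05 and DESeq2 called none. These fits leave out that the subtypes of a library share it. With the library as a block, kuz was called in c against d (0.12 ± 0.02 SE, adjusted p = 9.48e-05). With this block kuz and H were also called in T4 against T5 (42.6% of all genes called).

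**Figure D3:**
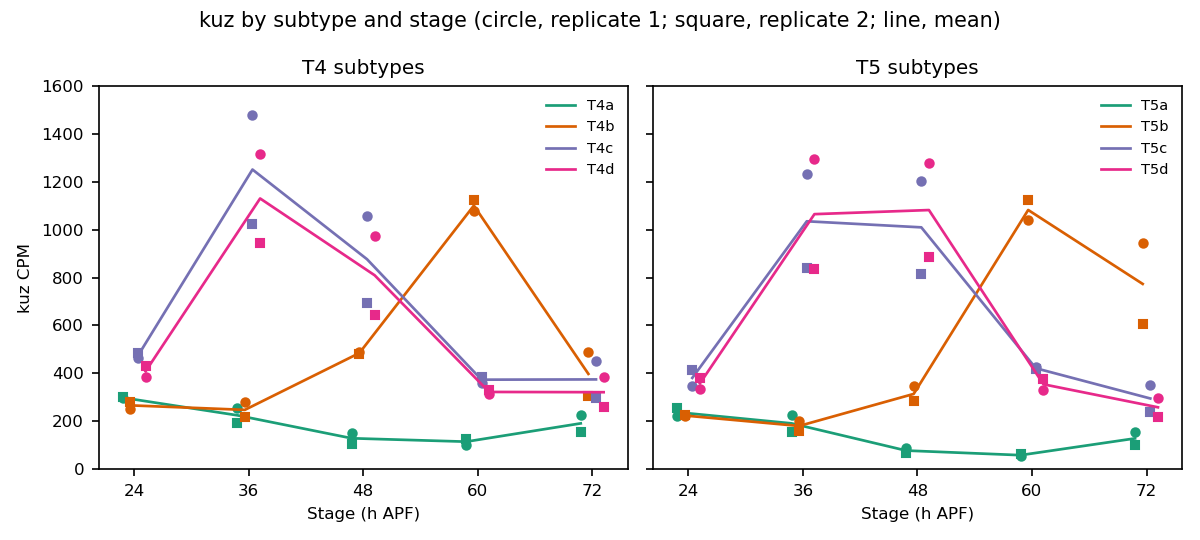
Level of kuz (CPM) against stage in h APF in the T4 subtypes (left) and T5 subtypes (right). Circles and squares are the first and second library of a stage and lines are means. The c and d subtypes peak at 36 and 48 h, the b subtypes at 60 h (1039 to 1125 CPM), and the a subtypes stay at or below 300.4 CPM throughout.

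At 24 h the kuz level differed least between subtypes. T4c was highest, at 462 and 486 CPM, followed by T4d at 385 and 432, T5c at 347 and 415, and T5d at 334 and 381. The other subtypes were lower, T4a at 297 and 300 CPM, T4b at 251 and 281, T5a at 220 and 255, and T5b at 222 and 225. Every c or d sum was above every a or b sum of its library, and the highest subtype had 2.10 and 2.16 times the level of the lowest in the 2 libraries. Neighbours in this order overlapped, as T4d and T5c did. The a,b subtypes were lower than c,d (-0.69 ± 0.17 SE, adjusted p = 0.00418), and the call was lost when either 24 h library was left out (adjusted p = 0.181 and 0.343).

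By 36 h kuz had parted the a,b from the c,d subtypes. The c and d subtypes were at 1479 and 1023 CPM (T4c), 1315 and 946 (T4d), 1231 and 839 (T5c), and 1293 and 836 (T5d). The a and b subtypes were at 257 and 193 CPM (T4a), 279 and 215 (T4b), 227 and 155 (T5a), and 202 and 158 (T5b). The first 36 h library, the one with few cells, was higher in every subtype, yet all c,d sums of both libraries lay above all a,b sums. The difference was -2.43 ± 0.18 (SE, adjusted p = 2.65e-15), 5.39-fold, and it was called under every alternative run, including those without the first 36 h library (values from -2.47 to -2.35). At this stage a and b did not differ by the test (-0.02 ± 0.24, adjusted p = 1).

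At 48 h the c and d subtypes stayed high and the b subtypes began to leave the a subtypes. T5d was at 1277 and 887 CPM, T5c at 1204 and 815, T4c at 1059 and 694, and T4d at 974 and 645. T4b had reached 490 and 479 CPM and T5b 345 and 282. T4a and T5a had come down to 151 and 107 CPM and to 88.5 and 66.2 CPM. The a,b subtypes remained lower than c,d (-2.23 ± 0.18 SE, adjusted p = 2.15e-14), and a was lower than b (-1.96 ± 0.25, adjusted p = 1.41e-07). The order T4 a,b above T5 a,b held in both libraries, and that of c and d was reversed, with T5 above T4.

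At 60 h the pattern had turned. T4b was at 1078 and 1123 CPM and T5b at 1039 and 1125, the highest sums of the stage, and the 2 types overlapped. The c and d subtypes had come down to 360 and 386 CPM (T4c), 315 and 329 (T4d), 426 and 417 (T5c), and 330 and 378 (T5d). T4a was at 102 and 127 CPM and T5a at 54.1 and 62.1, the lowest of all. Between b and a of one library the ratio was 10.5 and 8.86 in T4 and 19.2 and 18.1 in T5. The fitted difference a minus b was -3.72 ± 0.27 (SE, adjusted p = 5.99e-15), 13.2-fold, and a,d was lower than b,c (-1.97 ± 0.18, adjusted p = 8.57e-12).

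In single cells the gap at 60 h was of the same kind. At least 1 kuz UMI was found in 98.9% and 97.6% of T4b cells and in 98.9% and 98.6% of T5b cells of the 2 libraries, against 44.6% and 39.2% of T4a and 26.1% and 24.5% of T5a cells. The exact 95% binomial interval was 97.2% to 99.7% for T4b and 21.8% to 30.7% for T5a in the first library, and covers counting error only. With each cell thinned to 2000 UMIs these shares were 85.0% and 85.2% for T4b, 82.9% and 84.8% for T5b, 17.4% and 18.4% for T4a, and 12.0% and 9.68% for T5a. No sorted cell group was free of kuz, and in the glial-gene clusters, at a median of 772.5 and 709.5 UMIs per cell, the share was 29.5% and 9.09%.

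At 72 h kuz was still higher in b than in a, and T4b and T5b lay apart. T5b was highest, at 943 and 604 CPM, and T4b was at 490 and 306, so that T5b had 1.93 and 1.98 times the level of T4b. At the earlier stages this ratio was between 0.590 and 1.002, and the difference between the 2 was not tested on its own. T4c was at 453 and 296 CPM, T4d at 385 and 258, T5c at 351 and 239, and T5d at 298 and 218. T4a had 227 and 154 CPM and T5a 154 and 102. The first 72 h library was higher in every subtype, and within each library T5b led and T5a was last. The fitted difference a minus b was -1.84 ± 0.25 (SE, adjusted p = 6.86e-07) and a,d minus b,c was -1.02 ± 0.17 (adjusted p = 8.06e-05).

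The a,b against c,d difference of kuz was thus a matter of the early stages. At 60 h it was -0.27 ± 0.17 (adjusted p = 0.549) and at 72 h 0.01 ± 0.17. With the library as a block, since the 8 subtypes of a library share it, the difference at 60 h was called (-0.27, adjusted p = 6.44e-07). The mean CPM at 60 h went the other way, 589 in a,b against 368 in c,d, because the fit averages logarithms and the a subtypes are low. The change of the difference itself, the mean of 60 and 72 h minus the mean of 24 and 36 h, was 1.43 ± 0.17 for a,b minus c,d (adjusted p = 7.29e-09, with 7.05% of all genes called). For a,d minus b,c it was -1.47 ± 0.17 (adjusted p = 1.70e-08, 1.32% of all genes called), and for a minus b it was -2.83 ± 0.24 (adjusted p = 6.76e-12, 1.02% of all genes called). These 3 were called under every alternative run. No member was called in the change of T4 minus T5 (13.6% of all genes called, 2 members with an unadjusted p under 0.05) or of c minus d (0.723%, 0 members), and DESeq2 called none. With the library as a block, kuz (-0.15 ± 0.04 SE, adjusted p = 0.0017) and Psn were called in the change of T4 minus T5, against 33.1% of all genes. The study had picked kuz on these samples as a gene whose subtype pattern switches with time, so these tests are not independent evidence of it.

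T4 and T5 differed in kuz by little on average, 0.18 ± 0.08 (SE, adjusted p = 0.0777). With the library as a block the difference was 0.19 ± 0.02 (adjusted p = 1.31e-14), T4 being higher. It was also called with library totals alone (adjusted p = 0.0263), with no filter (0.0144) and without the first or second 72 h library (0.0468 and 0.0375). At single stages it was 0.27, 0.27, 0.17 and 0.19 from 24 to 60 h, each called under the block. T4a was above T5a in all 10 libraries, by 1.13 to 2.04 times. Between c and d kuz differed by 0.12 ± 0.11 (adjusted p = 1) on average, and under the block by 0.12 ± 0.02 with c higher (adjusted p = 9.48e-05). The block also called c minus d at 60 h (0.22 ± 0.06, adjusted p = 0.00618).

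**Figure D4:**
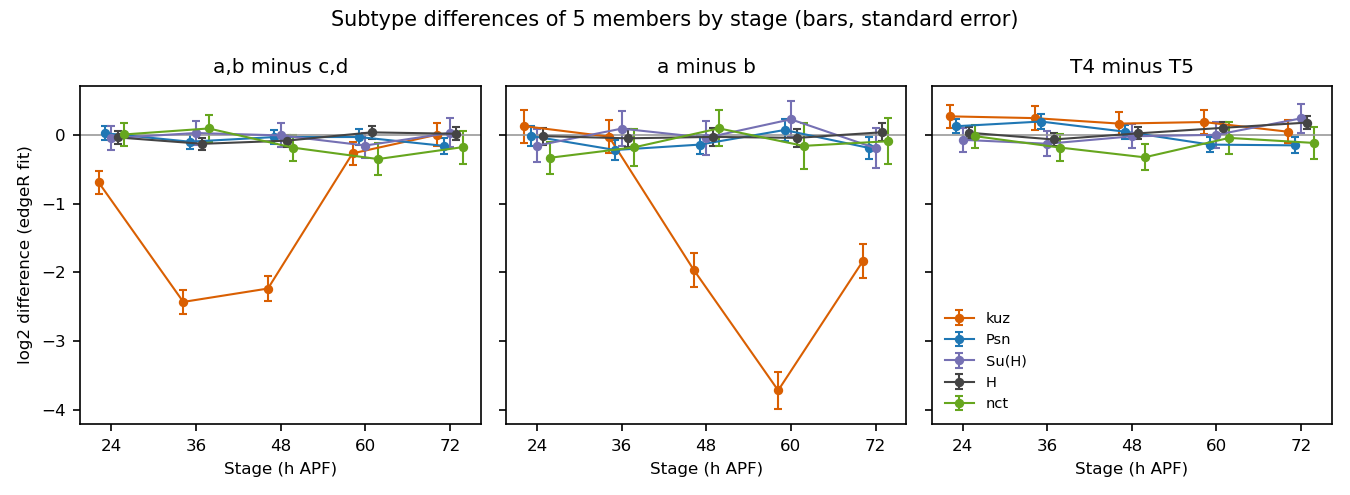
Fitted log2 differences between subtype groups (edgeR, bars are standard errors) against stage in h APF for kuz, Psn, Su(H), H and nct, as a,b minus c,d (left), a minus b (middle) and T4 minus T5 (right). The values of kuz reach -2.43 at 36 h in a,b minus c,d and -3.72 at 60 h in a minus b, and those of the other 4 genes lie between -0.35 and 0.24.

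The other members were nearly even across subtypes. The highest subtype mean of a stage was 1.13 to 1.35 times the lowest for H, 1.18 to 1.39 times for Psn, 1.16 to 1.39 times for Su(H) and 1.43 to 1.94 times for nct, while for kuz it was 2.12 to 18.9 times. None of H, Psn, Su(H) and nct was called in the averaged contrasts or in late minus early. For Psn, T4 minus T5 moved by -0.31 ± 0.11 from early to late (adjusted p = 0.0504), and with the library as a block by -0.29 (adjusted p = 0.000524). It was also called without either 48 h library (adjusted p = 0.0331 and 0.0303) or without the first 72 h library (0.0473). Under the block Psn was higher in T4 at 36 h (0.17, adjusted p = 0.0319), and H was higher in T4 on average by 0.06 (adjusted p = 0.048), a difference of 1.04-fold.

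N differed between a,b and c,d at 36 h, its stage of highest level. In the first library the a and b sums were 13.3 (T4a), 15.01 (T4b), 9.31 (T5a) and 9.65 CPM (T5b). The c and d sums were 4.36 (T4c), 7.81 (T5c) and 3.301 CPM (T5d), with 0 UMIs in the 104 cells of T4d, which allows a share of cells with a UMI of up to 2.88%. In the second library the a and b sums were 6.49 (T4a), 8.73 (T4b), 6.63 (T5a) and 8.02 CPM (T5b), and the c and d sums were 4.61 (T4c), 3.34 (T4d), 6.57 (T5c) and 6.89 CPM (T5d). The groups did not overlap in the first library and overlapped in the second. The difference was 0.99 ± 0.32 (SE, adjusted p = 0.0452, with 6.69% of all genes called). Without the first 36 h library it was 0.52 (adjusted p = 1) and without the second it was 2.94 (adjusted p = 0.0151). It was also lost with thinned cells (adjusted p = 0.583) and when a 24 h or 60 h library or the first 72 h library was left out (adjusted p from 0.0517 to 0.095).

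N was also called lower in T4 than in T5 on average (-0.70 ± 0.24 SE, adjusted p = 0.0252). The mean CPM over stages were 3.03 in T4 and 3.43 in T5, a smaller difference than the fitted one. Under the block N was also called lower in T4 at 48 h (-0.58, adjusted p = 0.0437). In late T4 sums N had 0 to a few UMIs, so the fitted size depends on the prior count of the test. The call was lost with marked doublets kept (adjusted p = 0.0851), with thinned cells, and without a 24 h library, a 60 h library or the second 72 h library (adjusted p from 0.0513 to 1). Thus N gave no subtype difference that held in all alternatives.

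Which genes had a subtype pattern most like that of kuz? Over the 80 sums, after the mean of each library was subtracted, the highest Pearson correlations among 7187 other genes included those of Toll-7 (r = 0.82), a leucine-rich-repeat receptor, RapGAP1 (0.79), which acts on the small GTPase Rap1, and the ribosomal protein genes RpS15 (0.71) and RpS9 (0.69). For Psn, Su(H) and H the highest values were 0.54 (boca), 0.48 (car) and 0.53 (sea). These describe 80 sums that share 10 libraries and their depth, and they carry no p.

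The rest of the pathway was read from a list of 47 genes, of which 38 were tested over stages and 33 over subtypes. Between 24 and 72 h, 12 of the 38 rose and 12 fell (63.2%), close to the 58.0% of all genes tested, with a median change of 0.0007 against 0.02 on the log2 scale. Between 24 and 36 h none was called by edgeR, where 4 had an unadjusted p under 0.05 and DESeq2 called 1. In the steps that followed, 4, 8 and 4 were called (10.5%, 21.1% and 10.5% of the 38), against 16.5%, 19.0% and 9.41% of all genes tested. Of the 33 genes tested over subtypes, 3 were higher and 1 lower in T4 than in T5 on average (22.1% of all genes called), 1 was lower in a,b than in c,d (13.2%), and none was called in the other averaged contrasts, where 1, 2 and 0 had an unadjusted p under 0.05. In these, DESeq2 called 1, 0 and 0, and the fit with the library as a block called 3, 2 and 0 (8.42% and 7.83% of all genes in the first and second of these). With this block 13 of the 33 were called in T4 against T5 (39.4%, against 42.6% of all genes under the same fit) and 9 in a,b against c,d (27.3%, against 30.9%). DESeq2 called 7 in T4 against T5 (21.2%, against 23.1% of all genes) and 5 in a,b against c,d (15.2%, against 15.1%). Genes are named here where they passed the test with at least a 2-fold change.

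Among genes that modify the receptor, 2 of 5 rose and 2 fell between 24 and 72 h (58.0% of all tested genes called, 29.3% called lower). The fucosyltransferase O-fut1 (-1.15 ± 0.21 SE) and the glucosyltransferase rumi (-3.20 ± 0.53), which act on the receptor in the endoplasmic reticulum, both fell. The step of rumi from 48 to 60 h (-1.92 ± 0.56, adjusted p = 0.0451) was lost with the replicate number as a block (adjusted p = 0.0525) and was called in 9 of the 18 fits run, with -3.28 without the first 60 h library. The furin proteases Fur1 (2.35 ± 0.23) and Fur2 (1.11 ± 0.20, and 0.54 with library totals alone) rose. In mammals, furin cuts the receptor during its transport. Fur1 went from a mean of 59.1 to 202 CPM, with its step from 36 to 48 h called (1.34 ± 0.22), and it was higher in T5 than in T4 in all 10 libraries (T4 minus T5 -0.89 ± 0.05, adjusted p = 1.51e-19).

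Of the 4 genes of ligand endocytosis, neur and aux rose and mib1 fell between 24 and 72 h (58.0% of all tested genes called, 29.3% called lower). Both neur and mib1 are ubiquitin ligases that act on the ligands. Mib1 changed by -1.54 ± 0.22 between 24 and 72 h, and aux, the fly auxilin, by 1.69 ± 0.21. The ligase neur rose by 3.24 ± 0.58. The rise was 2.04 without the first and 3.87 without the second 72 h library, and it was called under every alternative run. In T4 it went from 12.0 and 11.6 CPM at 24 h through 91.3 and 48.7 (48 h) and 76.0 and 112 (60 h) to 173 and 58.9 (72 h). In T5 it was at 8.81 and 10.4 CPM at 24 h, 11.5 and 13.4 (60 h), and 25.3 and 10.5 (72 h). From 48 h on, all T4 values lay above all T5 values. T4 was higher on average (2.01 ± 0.15 SE, adjusted p = 1.14e-15, 4.04-fold), and the difference grew from early to late (2.31 ± 0.33, adjusted p = 5.26e-07). The 4 subtypes of T4 were alike at 60 h, with means of 92.0 to 95.3 CPM.

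Of the 7 genes of cleavage, 3 rose and 2 fell between 24 and 72 h (58.0% of all tested genes called, 29.3% called lower). Of these 7 the tetraspanin gene Tsp86D passed 2-fold (1.65 ± 0.50). Its rise was lost without the first 72 h library (0.58, adjusted p = 0.173), without either 24 h library (adjusted p = 0.0983 and 0.0858) and with library totals alone (1.03, adjusted p = 0.0669). Against the same shares of all genes, 1 of the 5 genes of the nuclear complex rose and none fell. Of the 9 genes of receptor trafficking and inhibition, 3 rose and 1 fell. Numb, which blocks the receptor in a single daughter of a dividing precursor, rose by 3.69 ± 0.95, with 356 CPM in the first and 67.6 CPM in the second 72 h library. Without the first of these it was not called (1.88, adjusted p = 0.0608), nor without either 24 h library (adjusted p = 0.0732 and 0.0525). Su(dx), a ubiquitin ligase that acts on the receptor, rose by 1.23 ± 0.37 and was lost without the first 72 h library (0.80, adjusted p = 0.104), without the first 24 h library (adjusted p = 0.124) and with library totals alone (0.65, adjusted p = 0.109). The kinase gene Nak rose from 48 to 60 h (1.08 ± 0.23) and was lost without the first 48 h library or either 60 h library (adjusted p from 0.0581 to 0.11).

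Of the 17 listed target genes 8 had enough UMIs to be tested over stages, and 1 rose and 6 fell between 24 and 72 h. Over all tested genes 58.0% were called and 29.3% were called lower. The one that rose was Hey, a transcription factor that marks the Notch-active sibling among newborn neurons of the fly nerve cord. Over all T4/T5 cells Hey was at 2.42 and 1.84 CPM at 24 h, 2.78 and 7.67 (36 h), 11.7 and 12.1 (48 h), 4.37 and 3.93 (60 h), and 65.1 and 62.8 (72 h). The 72 h libraries stood above all others. The step from 60 to 72 h was 4.10 ± 0.37 (SE, adjusted p = 0.000383). A smaller rise from 36 to 48 h (1.33 ± 0.34, adjusted p = 0.0314, and 2.27 without the second 36 h library) was lost without either 24, 48 or 60 h library, and the fall from 48 to 60 h (-1.37 ± 0.34, adjusted p = 0.0254) without either 48 or 60 h library (adjusted p from 0.0594 to 0.156 for both steps).

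From 48 h on Hey was higher in T4 than in T5 in every library. At 24 h the types were alike, with 2.39 and 1.62 CPM in T4 and 2.37 and 2.06 in T5, and at 36 h they were at 2.82 and 10.1 CPM in T4 and 2.71 and 4.77 in T5. At 72 h its means were 67.3 CPM in T4a, 89.6 in T4b, 147 in T4c and 220 in T4d, against 1.96 to 9.17 in the T5 subtypes, and the 2 libraries of each T4 subtype did not overlap those of the next. At 48 h T4 was at 23.1 and 21.6 CPM and T5 at 1.28 and 1.60. The averaged difference was 3.13 ± 0.20 (SE, adjusted p = 5.53e-17) and grew by 5.53 ± 0.39 from early to late (adjusted p = 2.52e-15). The T5 sums hold few UMIs, so the fitted size depends on the prior count, and without the second 36 h library the averaged contrast could not be called (2.77, adjusted p = 1), while the growth was called under every alternative run.

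The other target genes with a call were lower at 72 h. E(spl)malpha-BFM was at 2.72 and 3.54 CPM at 48 h and 5.81 and 7.38 at 60 h, a rise (1.22 ± 0.31 SE, adjusted p = 0.0266) that was called in 10 of the 18 fits run and lost without either 24 or 60 h library or the first 48 h library. It then fell from 60 to 72 h, from a mean of 6.597 to 0.047 CPM, and this was called under all alternatives run. The 72 h libraries held 0 and 3 UMIs, so the fitted size (-6.45 ± 0.51) depends on the prior count, and without the second of them it was -10.5. E(spl)mbeta-HLH, E(spl)m3-HLH, E(spl)m7-HLH and E(spl)m8-HLH were at means of 1.77, 0.61, 0.85 and 0.77 CPM at 24 h and were called lower at 72 h, and for each of them leaving out at least 1 library lost the call. E(spl)m7-HLH also fell from 60 to 72 h (-3.59 ± 0.66, and -8.48 without the second 72 h library), a call made in 15 of the 18 fits run. The zinc finger gene klu fell from 36 to 48 h (-3.11 ± 0.39) and was lower at 72 than at 24 h (-3.14 ± 0.39).

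E(spl)m6-BFM, a small protein of the Bearded family, had a pulse at 60 h. Over all T4/T5 cells it was at 0.45 and 0.41 CPM at 24 h, 0.11 and 1.46 (36 h), 8.20 and 14.4 (48 h), 66.6 and 70.7 (60 h), and 0.16 and 0.28 (72 h). It rose from 36 to 48 h (3.73 ± 0.53 SE, and 6.77 without the second 36 h library) and from 48 to 60 h (2.75 ± 0.44) and fell from 60 to 72 h (-8.00 ± 0.64, adjusted p = 0.000228). The last of these was called under every alternative run, and the rises were called under all except the one over all barcodes that passed. At 60 h the means were 150 CPM in T5a and 176 in T5b, 43.5 in T4a, 40.2 in T5c, 35.1 in T5d, 11.9 in T4b, and 4.38 and 4.68 in T4c and T4d. T5 was at 96.5 and 104 CPM and T4 at 17.8 and 14.5. The averaged subtype contrasts could not be estimated for this gene, since several of its sums hold no UMI at other stages.

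**Figure D5:**
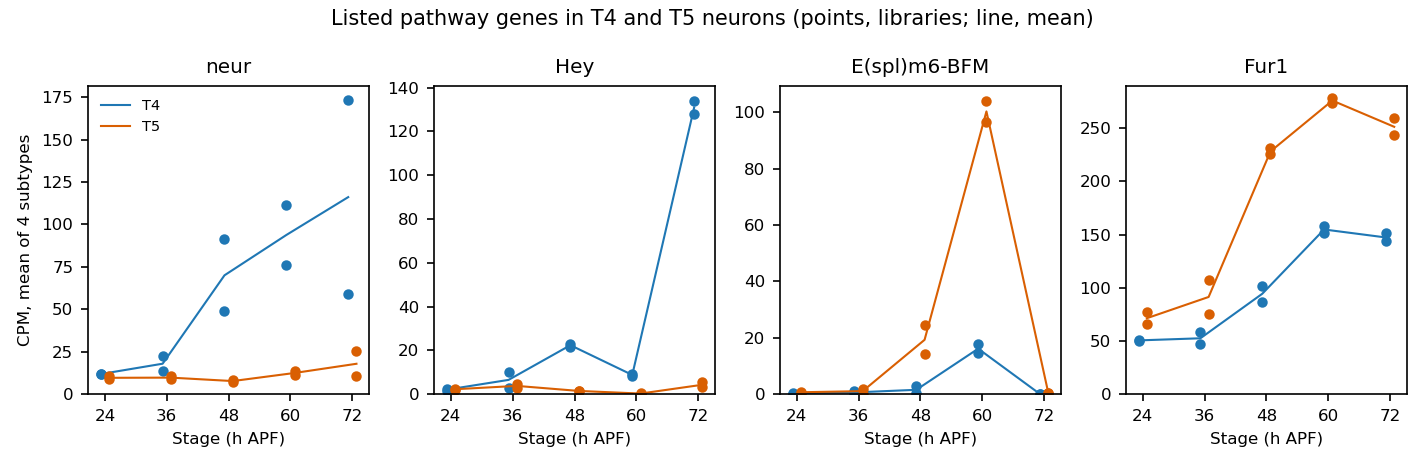
Levels of neur, Hey, E(spl)m6-BFM and Fur1 (CPM, mean of the 4 subtypes of a type, linear axes that differ between genes) against stage in h APF in T4 (blue) and T5 (orange). Points are libraries and lines are means. At 72 h Hey is at 128 and 134 CPM in T4 and at 5.51 and 3.02 in T5, and E(spl)m6-BFM peaks at 60 h in T5.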

How the data were processed

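The deposited values were UMI counts per gene and barcode, made by the authors with Cell Ranger 3 from reads aligned to the fly genome with an Ensembl annotation, 1 matrix per library. The files held barcodes with at least 500 UMIs and no cell annotation. Barcodes with over 10% of UMIs from mitochondrial or from heat-shock genes were left out here (10287). Each stage was clustered with Seurat 5.3.0 (2000 variable genes, 15 principal components, resolution 0.8), 4676 barcodes were marked as doublets with scanpy 1.11.5 and left out (7.47%), and 118 clusters were named from the markers of T4/T5, of T4 against T5 and of the a to d subtypes. A further 32 clusters stayed unnamed, and their cells were left out of the sums. Several T4a and T4b clusters at 36 h and T4c and T4d clusters at 48 h had none of their own markers among their 10 most enriched genes. No named cluster had more markers of other subtypes than of its own among these 10 genes. Names rebuilt in this way may differ from the study's. UMIs were summed per library and per subtype and library and tested with edgeR 4.0.16 (TMM, filterByExpr, quasi-likelihood test, two-sided, Benjamini-Hochberg), in R 4.3.3. On simulated counts with 200 changed genes, the stage test recovered 90.9% of 4-fold and 25.5% of 2-fold changes. The averaged subtype test recovered 100% of both, and late minus early recovered 100% and 87.1%. Of the calls of these tests 2.54%, 3.48% and 6.91% were false. The simulated sums were drawn independently with a common spread. They leave out what real subtypes of a library share, so these rates may not hold for the data. Standard errors were computed from the fitted change and its F value. Positions came from the annotation given for this work and not from the files.

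The 9 members were all named, and other genes were taken from a list by role and named where an adjusted p under 0.05 went with at least a 2-fold change in a stage contrast, an averaged subtype contrast or late minus early. Genes most like a member were the 5 with the highest Pearson r for kuz and for members with at least 20 CPM on average, on log2(CPM + 5), of which 1 is not reported here. The members and lists were chosen with earlier results of these data known. Subtypes of 1 library deviated together (28 of 28 pairs with r over 0.1 at every stage), because they share the library, so the fit with the library as a block is given for members where it changes a call and for the list as counts. Alternatives were DESeq2 1.42.0, library totals without TMM, no filter, the block, doublets kept, cells thinned to 2000 UMIs, all barcodes that passed, names from transcription factors, and leaving out each library.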

Additional observations from a re-analysis of the deposited data

Results flagged for a closer look

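Subtype differences of kuz, 3 in number, changed between the early stages (24 and 36 h APF) and the late stages (60 and 72 h) by the test of the change itself. The difference a,b minus c,d moved by 1.43 on the log2 scale, the difference a,d minus b,c by -1.47, and the difference a minus b by -2.83. In the libraries the a,b sums of kuz lay below all c,d sums at 36 h, and at 60 h the b sums lay above all others while the a sums lay below all others, in both libraries of each stage. No other member had a call of this kind, except Psn for T4 minus T5 with the library as a block or with some libraries left out. No stage had the 4 libraries that a test for a single outlying library needs.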

How the results depend on the processing

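Most single results kept their direction and their side of the threshold, and no called test of a member turned its direction under any alternative run. Counted in UMIs per cell in place of CPM, the 72 h over 24 h level of kuz turned from 0.07 to -0.59 on the log2 scale, and those of nct, Psn, Su(H) and H went from -1.71, -1.80, -2.18 and -0.61 to -2.37, -2.44, -2.85 and -1.20, since cells at 72 h held fewer UMIs. The number of members called moved from 0 to 1 with no filter (24 to 36 h and 60 to 72 h), and from 2 to 1 between 48 and 60 h with thinned cells or with all barcodes that passed. For T4 against T5 on average it moved from 1 to 2 (library totals, or no filter), 3 (block) and 0 (doublets kept, or cells thinned), for T4 against T5 late minus early from 0 to 2 (block), and for c against d on average from 0 to 1 (block). When 1 library was left out these counts ranged from 3 to 5 for 24 to 72 h (4 with all libraries), from 0 to 1 for 36 to 48 h, from 0 to 2 for 48 to 60 h, from 0 to 1 for 60 to 72 h, from 0 to 2 for T4 against T5 on average and from 0 to 1 for its change from early to late. Where no cause is given, the cause was not tested. For the steps between stages the libraries share only a number (10 pairs, r from -0.41 to 0.65, 3 over 0.1), and the replicate block left the members called at 0, 0, 2, 0 and 4. Leaving out a library leaves its stage with 1, which is then assumed to vary like the others. The 2 libraries per stage and the few UMIs of N, Dl, Ser and fng limit what can be seen for these genes.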

Other observations

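Clusters low in the T4/T5 markers, the glial-gene clusters aside, held 4120 sorted cells, 1795 of them in the second 36 h library. Which cell types they were was not tested. These cells held more Dl than T4/T5 cells in 9 of 10 libraries. In them Dl was at 28.5 and 19.4 CPM at 24 h, 2.84 and 4.12 (48 h), 22.1 and 33.2 (60 h), and 26.5 and 19.1 (72 h). At 36 h it was at 4.04 CPM in the second library, and the first had 0 UMIs in 101 cells, which allows a share of cells with a UMI of up to 2.97%. The highest level in T4/T5 cells was 1.68 CPM. N was higher in these cells than in T4/T5 cells in 7 of 10 libraries, at 38.9 and 27.8 CPM at 24 h, 11.4 and 9.32 (36 h) and 0.947 and 5.15 (48 h). At 60 and 72 h the first libraries had 0 UMIs in 64 and 188 cells, which allows up to 4.69% and 1.60% of cells, and the second were at 1.58 and 1.53 CPM.

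The subtype order of E(spl)m6-BFM at 60 h, with T5a and T5b high, differed from that of kuz at the same stage, where T4b and T5b were the highest and T5a was the lowest. In T5a the means were 150 CPM for E(spl)m6-BFM and 58.1 CPM for kuz, and in T5b they were 176 and 1082 CPM. Both values of each gene come from the same 2 libraries, and no test of this contrast was made.

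The 2 libraries of a stage lay far apart for numb, at 235.5 and 63.7 CPM in T4 at 48 h and at 372 and 67.7 CPM at 72 h, with the first library the higher at both stages in T4 and in T5.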
